A study of Mus musculus with 12 samples.

Results

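Splenic γδ T cells with Gzma transcripts were described in 4 single-cell libraries. A cell was taken as a splenic Gzma cell where it had at least 500 UMIs (unique molecular identifiers, each standing for a captured transcript), at least 2 UMIs of Gzma and no UMI of Il17a. Of 38495 splenic cells with at least 500 UMIs, 311 met this rule, out of 97404 cells in all 12 libraries (matrices split by hashtag) of the series. The remaining cells of the same library served as the comparison. The cells were chosen by their Gzma and Il17a UMIs, so every difference between Gzma cells and remaining cells is given as a description with no test.

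The splenic cells came from adult mice labelled WT or GFI1 KO (germline deletion, C57BL6/J background, at least 5 weeks old). They were depleted magnetically of B cells, myeloid cells and NK cells and sorted as CD3+ CD4-negative γδ T cells. In each of 2 pools, WT and KO cells carried different hashtag antibodies and shared a droplet run, so WT replicate 1 and KO replicate 1 came from pool 1 and the others from pool 2. The number of mice behind a library was not given in the sources used here, so the tests measure at most the spread between libraries, which may be technical. No other treatment was given in the labels.

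Libraries held 7818 to 11679 cells, and the Gzma cells summed to 486983 UMIs in WT replicate 1, 618608 in WT replicate 2, 658616 in KO replicate 1 and 880571 in KO replicate 2. WT and KO libraries of a pool shared 0 cell barcodes, libraries of different pools shared 15 to 26, and none of these were Gzma cells. The WT replicate 1 Gzma cells stood apart from the other 3 sets: 18.9% of them had no Trdc UMI (10 of 53 cells, against 0 to 3 cells elsewhere) and 30.2% carried at least 5 UMIs of cell cycle genes (3.49% to 10.4% elsewhere).

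Gfi1 (ENSMUSG00000029275), the targeted repressor of transcription, was read first as a check of the labels. Its level in the summed Gzma cells, in CPM (UMIs of a gene scaled to 1000000 UMIs in all), was 8.21 and 19.4 in the WT libraries and 15.2 and 17 in the KO libraries. In the remaining cells it was 11.8, 17.9, 18.1 and 18.2 CPM in the same order. In the Gzma cells the KO libraries lay within the WT range, and the log2 difference KO over WT was 0.30 ± 0.50 (SE; edgeR quasi-likelihood adjusted p = 0.754). A 3′ tag outside the deleted part checks nothing, and whether that holds here was not tested. The hashtag assigned to a library led in 99.59% to 100% of its splenic cells, which checks the split of the pools but not the genotype behind a hashtag. The groups are therefore the libraries labelled WT and KO.

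As background, Gzma encodes granzyme A, a tryptase that cytotoxic lymphocytes store in granules and release onto target cells together with perforin. Mouse γδ T cells divide broadly into γδT17 cells, which produce interleukin-17, express MAF and often use Vγ6, and interferon-γ-producing cells, which often express CD27, T-bet and NK-type receptors. CD49a (Itga1), an integrin that binds collagen, the interleukin-18 receptor chain (Il18r1) and the C-type lectin receptor NKR-P1B (Klrb1b) mark several kinds of tissue-adapted innate-like lymphocytes.

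The 3 other genes by which these cells had been named did not travel with Gzma as a set. Itga1 (ENSMUSG00000042284) stood at 32.9 and 21.0 CPM in the WT Gzma cells and 83.5 and 13.6 in the KO Gzma cells, against 10.3, 9.59, 29.0 and 13.5 CPM in the remaining cells. It was thus higher in Gzma cells of 3 libraries, with ratios of 2.12, 1.58 and 2.40 after 10 CPM was added to both values, and level in KO replicate 2 at 1.00. Il18r1 (ENSMUSG00000026070) stood at 123, 165, 219 and 184 CPM in Gzma cells and 209, 220, 413 and 329 CPM in the remaining cells. Il18r1 was lower in the Gzma cells of all 4 libraries, with ratios between 0.540 and 0.761. Klrb1b (ENSMUSG00000079298) was at 0 and 6.47 CPM in WT Gzma cells and 208 and 102 CPM in KO Gzma cells, against 7.52, 6.01, 155 and 142 CPM in the remaining cells. Both KO sets lay above both WT sets, in Gzma cells and in remaining cells alike. No WT Gzma cell had UMIs of all 3 genes, while 17 of 77 and 4 of 95 KO Gzma cells did. None of the 3 was detected in 30 of 53, 50 of 86, 16 of 77 and 26 of 95 Gzma cells. The label's marker set is thus not borne out by these cells, and they are called here by the gene that chose them.

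**Figure D1:**
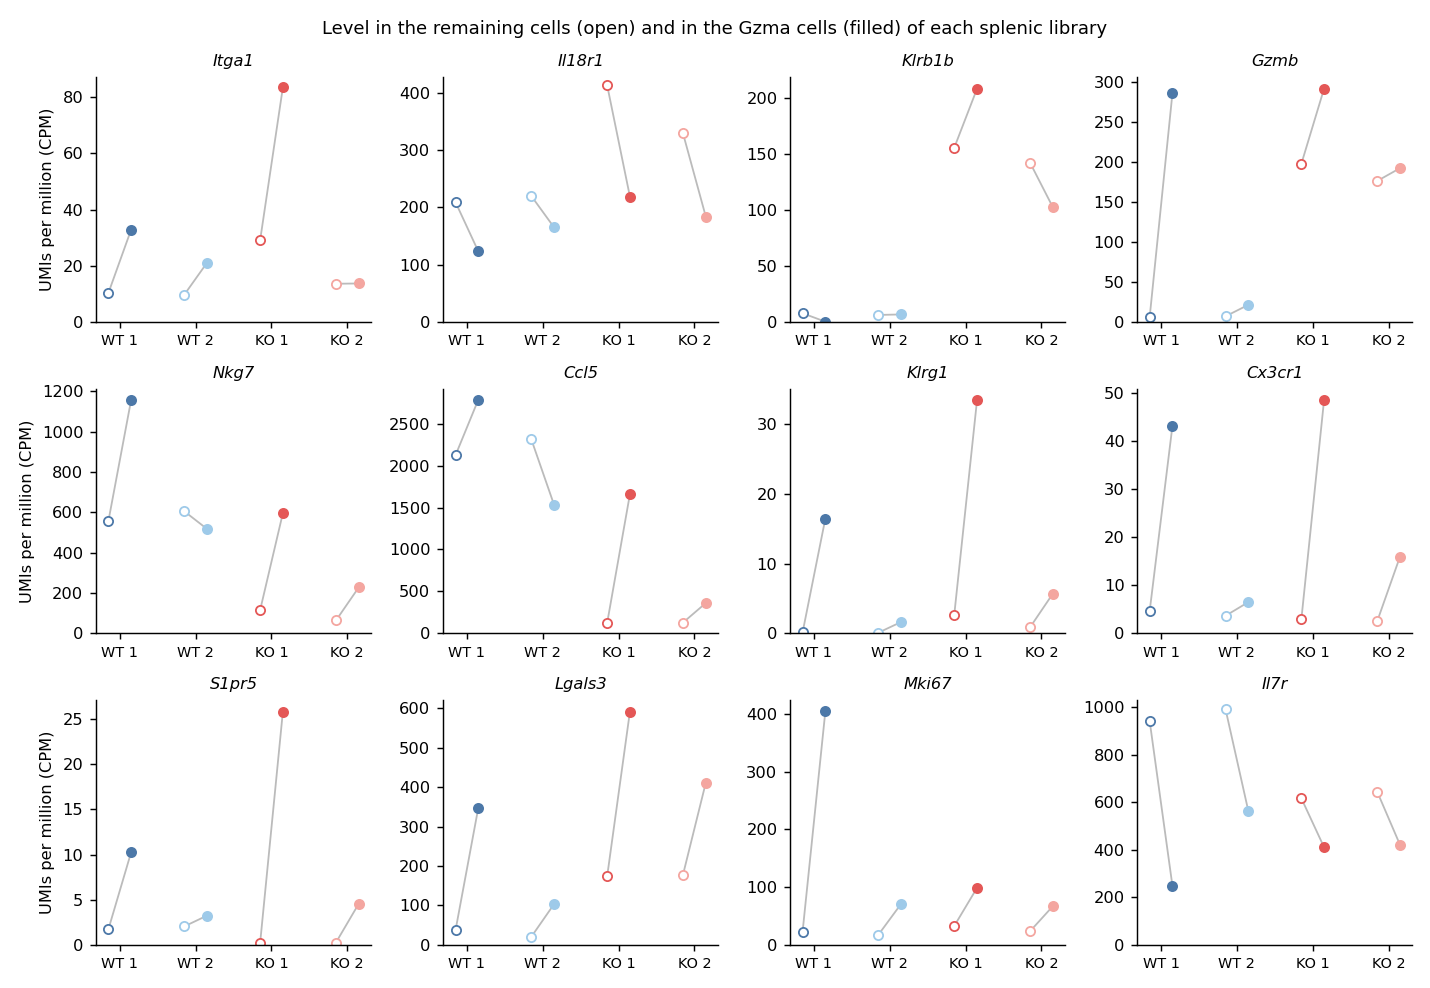
Levels of 12 genes in CPM (linear axes that start at 0) in each splenic library, with an open circle for the remaining cells, a filled circle for the Gzma cells and a line joining the pair; there are no error bars, since each point is the sum of 1 library. Il18r1 and Il7r lie lower in the Gzma cells of all 4 libraries, and Lgals3 and Mki67 lie higher in all 4.

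Gzma itself was spread unevenly over the cells. At exactly 2 UMIs, just inside the rule, lay 16, 35, 13 and 25 cells (WT replicate 1, WT replicate 2, KO replicate 1 and KO replicate 2, the order used throughout), and just outside it, at 1 UMI, lay 134, 198, 69 and 104 cells. At the upper end, 21, 13, 34 and 32 cells had 10 or more Gzma UMIs, and the highest cell held 267, 229, 72 and 56. The WT sets thus had medians of 4 and 3 UMIs with a few very high cells, and the KO sets medians of 7 and 6 UMIs with lower maxima. The rule also removed cells with Il17a, the γδT17 cytokine gene: 0 and 0 WT cells and 5 and 15 KO cells had at least 2 Gzma UMIs together with Il17a.

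The Gzma cells were deeper than the cells around them. Their median depth was 6512, 5887.5, 8372 and 8734 UMIs, against 4931.5, 5018, 5444 and 5391.5 in the remaining cells, so a rule on a fixed number of UMIs favoured deep cells. They held 89.1%, 81.7%, 91.8% and 82.7% of all Gzma UMIs of their library. Their median share of mitochondrial UMIs was 1.73% to 2.73%, against 2.00% to 2.95% in the remaining cells, and all of them passed the study's limits of 200 genes and 20% mitochondrial UMIs. No doublet caller was run, so doublets among the deepest cells were not tested.

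**Figure D2:**
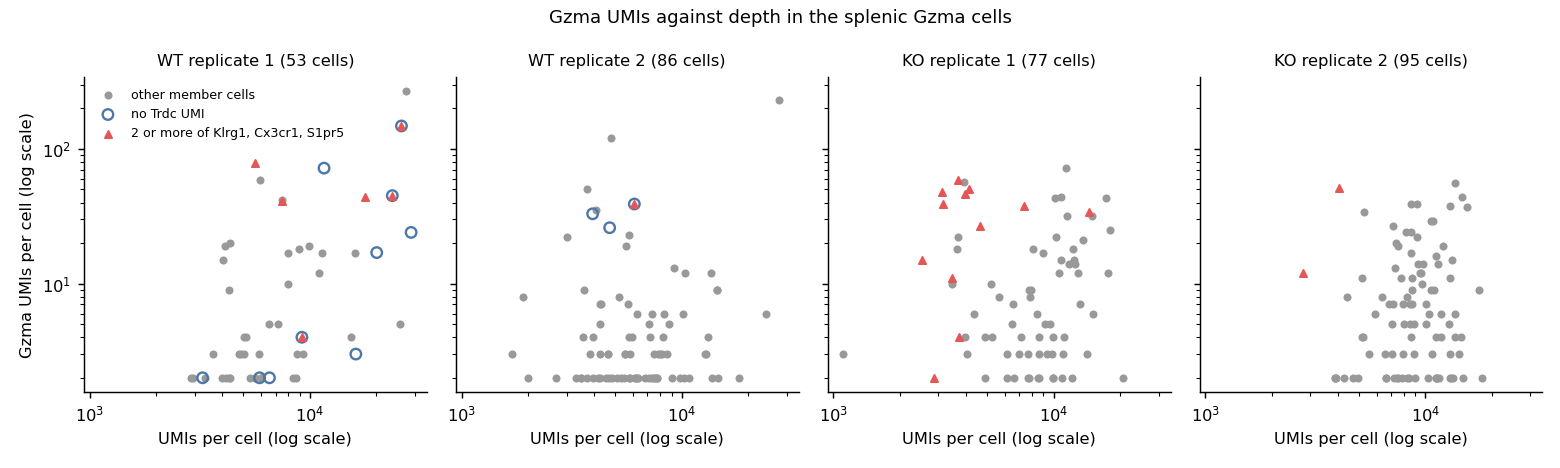
Gzma UMIs against total UMIs (both log scales) in each Gzma cell of the 4 libraries, with blue rings for cells without a Trdc UMI and red triangles for cells with at least 2 of Klrg1, Cx3cr1 and S1pr5. The triangles sit mostly among the high Gzma values, and rings are seen in the WT libraries (10 and 3 cells) and in neither KO library.

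The share of splenic cells that met the rule was small in every library. It was 0.677% in WT replicate 1 (53 of 7833; exact 95% binomial interval 0.507 to 0.884), 0.770% in WT replicate 2 (86 of 11165; 0.617 to 0.950), 0.985% in KO replicate 1 (77 of 7818; 0.778 to 1.23) and 0.813% in KO replicate 2 (95 of 11679; 0.659 to 0.994). The intervals cover counting error only. The means were 0.723% ± 0.0662 in WT and 0.899% ± 0.121 in KO (SD, n = 2), a difference of 0.176 percentage points that was 0.308 in pool 1 and 0.0432 in pool 2. Without KO replicate 1 it was 0.09. Both KO shares lay above both WT shares, and the exact two-sided permutation test gave p = 0.33, the smallest that 2 against 2 libraries allow. With every cell thinned to 2000 UMIs, the shares were 0.401%, 0.341%, 0.611% and 0.431%. With no condition on Il17a they were 0.677%, 0.770%, 1.05% and 0.942%. At 3 or more Gzma UMIs they were 0.472%, 0.457%, 0.819% and 0.599%. With 1 Gzma UMI as the limit and no condition on Il17a the order turned: 2.39% and 2.54% of WT cells but 1.93% and 1.83% of KO cells had at least 1 Gzma UMI.

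Free RNA in the droplets can place UMIs in cells that do not express a gene, so low Gzma counts were also read in the cells around. Of all remaining cells, 1.72%, 1.79%, 0.956% and 1.03% had a Gzma UMI, at the median depths given above. Among remaining cells with UMIs of both Il2rb and Ccl5, genes of interleukin-2 and interleukin-15 signalling and of a chemokine of effector cells, the share was 1.18%, 1.39%, 1.11% and 1.31% at median depths of 5813, 5935, 6114 and 5731 UMIs. Among remaining WT cells with UMIs of both Ccr9 and Scart2 it was 3.15% and 6.03%, at median depths of 5252 and 5466 UMIs. The single UMIs were thus not at a like share in every class of the WT libraries. The part of free RNA in the cells with 2 Gzma UMIs was not tested.

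Set against the remaining cells, the Gzma cells of all 4 libraries were higher in cell cycle genes and in Lgals3. Among 6325 genes whose level averaged 20 CPM or more over the Gzma cell sums, 9 (0.142%) were at least 2-fold higher in every library, and 8 of these, H1f5, Pclaf, H2ac8, Birc5, Mki67, Cks1b, H3c3 and Stmn1, encode histones, division proteins or a tubulin regulator made in dividing cells. Mki67, the gene of the Ki-67 proliferation antigen, stood at 405, 71.1, 98.7 and 67 CPM in Gzma cells and 22.8, 17.5, 32.6 and 23.6 CPM in the remaining cells, ratios of 12.6, 2.95, 2.55 and 2.29. Birc5 (survivin, a passenger protein of mitosis) stood at 351, 46.9, 57.7 and 22.7 CPM against 12.2, 8.76, 5.83 and 3.03. WT replicate 1 was the highest of the 4 libraries for each of these, and the direction was the same in the other 3. With the 20 CPM taken over Gzma cells and remaining cells together, a filter added after seeing the data that does not favour genes high in the Gzma cells, the same 9 of 6413 genes were 2-fold higher, and 8.50% of genes were higher and 17.4% lower in all 4 libraries by any amount. Under the first filter these were 587 genes (9.28%) higher and 1014 (16%) lower, the measure used for the gene lists that follow. The count of 9 was larger with less CPM added and smaller in thinned cells, as given in the last section.

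A minority of Gzma cells carried several UMIs of the cycling list. At least 5 UMIs of the cycling list were found in 16 of 53, 3 of 86, 8 of 77 and 8 of 95 Gzma cells (30.2%, 3.49%, 10.4% and 8.42%), against 1.77%, 1.60%, 1.85% and 1.36% of the remaining cells. At an equal 2000 UMIs a cell, the shares were 17%, 2.38%, 3.95% and 3.16% against 0.697%, 0.546%, 0.354% and 0.0886%. The Gzma cells were higher in every library on both scales. On both scales the cells were those chosen at full depth, so thinning evened the cycling counts but not the choice of deep cells. The part of depth in these shares was not tested. Without the cells that carried 5 such UMIs, none of the 6325 genes was 2-fold higher in all 4 libraries. That filter reads the cycling genes themselves, so lower levels of the list genes without these cells follow from it.

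Lgals3 was the 1 gene of the 9 that is not a cell cycle gene. It encodes galectin-3, a lectin that binds glycans on surface receptors, and it stood at 347, 103, 592 and 411 CPM in Gzma cells against 36.7, 20.4, 174 and 178 CPM in the remaining cells. The ratios were 7.64, 3.73, 3.27 and 2.24. Without the cycling cells they were still 1.77 to 3.28, lowest in WT replicate 1. Ube2c, Ifi204 and Kif4 came next by their lowest ratio, 1.94, 1.90 and 1.86. Ifi204, an interferon-inducible DNA sensor gene, had ratios of 1.85 to 3.07 without the cycling cells.

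Among the genes lowest in the Gzma cells was Il7r, the interleukin-7 receptor chain on which resting T cells depend. It stood at 248, 564, 410 and 421 CPM against 941, 991, 616 and 644 CPM, ratios of 0.272, 0.573, 0.670 and 0.659. Fgf13, Mettl16, A330023F24Rik, Dusp7, Auts2, St6galnac3, Arrb1, Tmtc2, Rapgef4, Arnt2 and Rabac1 made up the rest of the 12 with the smallest highest ratio. In the wider naive and stem list 2 of 10 genes, Il7r and Dapl1, were lower in all 4 libraries and none was higher. The list's median ratio was 0.540 and 0.754 in WT but 1.02 and 0.943 in KO, where Lef1 and Tcf7 were already low in the remaining cells.

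Cytotoxic granule genes did not follow Gzma as a group. Of 11 described, 2 were higher in all 4 libraries (Gzmb and Srgn, the core protein of the granule matrix) and 2 were lower in all 4 (Cst7, an inhibitor of granule cathepsins, and Lamp1), and the median ratios were 1.42, 0.981, 1.19 and 0.995 against 0.985, 1.03, 0.912 and 0.934 over all genes described. Gzmb, granzyme B, stood at 285, 21, 292 and 192 CPM in Gzma cells and 5.69, 6.69, 197 and 176 in the remaining cells. Gzmb was high across the KO libraries, where 47.7% and 46.8% of the remaining cells had a Gzmb UMI, against 2.24% and 2.30% in WT. Prf1, perforin, stood at 67.8, 32.3, 60.7 and 27.3 CPM against 37.5, 44, 33.4 and 31, with no common direction. Nkg7, a granule membrane protein needed for degranulation, stood at 1158, 517, 595 and 227 CPM against 557, 605, 114 and 63.2, higher in 3 libraries and lower in WT replicate 2. The chemokine gene Ccl5 behaved alike, at 2784, 1531, 1660 and 360 CPM against 2123, 2312, 124 and 127.

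Of 13 NK-type receptors described, 5 were higher in all 4 libraries and none was lower in all 4. These were Klrk1 (the activating receptor NKG2D), Klrc1 and Klrc2 (partners of CD94), Cd244a and Cd7. In KO replicate 2 Klrc2 and Cd244a were higher by little, at 20.4 against 18.0 CPM and 5.68 against 3.95 CPM. Klrc1 stood at 175, 113, 165 and 82.9 CPM against 76.4, 95.7, 51.8 and 45.9. The list's median ratios were 1.39, 1.25, 1.41 and 1.08, and its summed level was 2240, 2334, 1590 and 989 CPM against 1644, 1747, 1177 and 1112, lower in KO replicate 2. Cx3cr1, the fractalkine receptor of circulating effector cells, stood at 43.1, 6.47, 48.6 and 15.9 CPM against 4.61, 3.63, 2.88 and 2.48. Of 10 chemokine receptor and egress genes, 3 were higher in all 4 libraries, Cx3cr1 and Ccr9 among them. Of 12 integrin and adhesion genes, Itga1, Itga4 and Itgb1 were higher in all 4, Itga1 by next to nothing in KO replicate 2, and Itgb1 stood at 573, 339, 1237 and 1190 CPM against 190, 180, 916 and 991.

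Of 12 cytokine receptors, Il7r, Il18r1 and Ifngr1 were lower in all 4 libraries, and Il12rb2 was higher, with ratios of 2.22, 1.96, 2.62 and 1.01. The last of these rests on 1 UMI in the Gzma cells, at 1.14 against 1.05 CPM. The list's median ratios were 0.922, 1.02, 0.696 and 0.798. Of 8 interferon-induced genes, Isg15 and Bst2 were higher in all 4. Isg15, an interferon-induced ubiquitin-like protein, stood at 148, 333, 27.3 and 19.3 CPM against 38.1, 55.8, 12.2 and 12.1. The list's median ratios were 2.31, 3.18, 1.3 and 1.28, so the WT libraries held the larger differences. The γδT17 list had no common direction, with medians of 0.548, 1.38, 0.674 and 0.805.

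**Figure D3:**
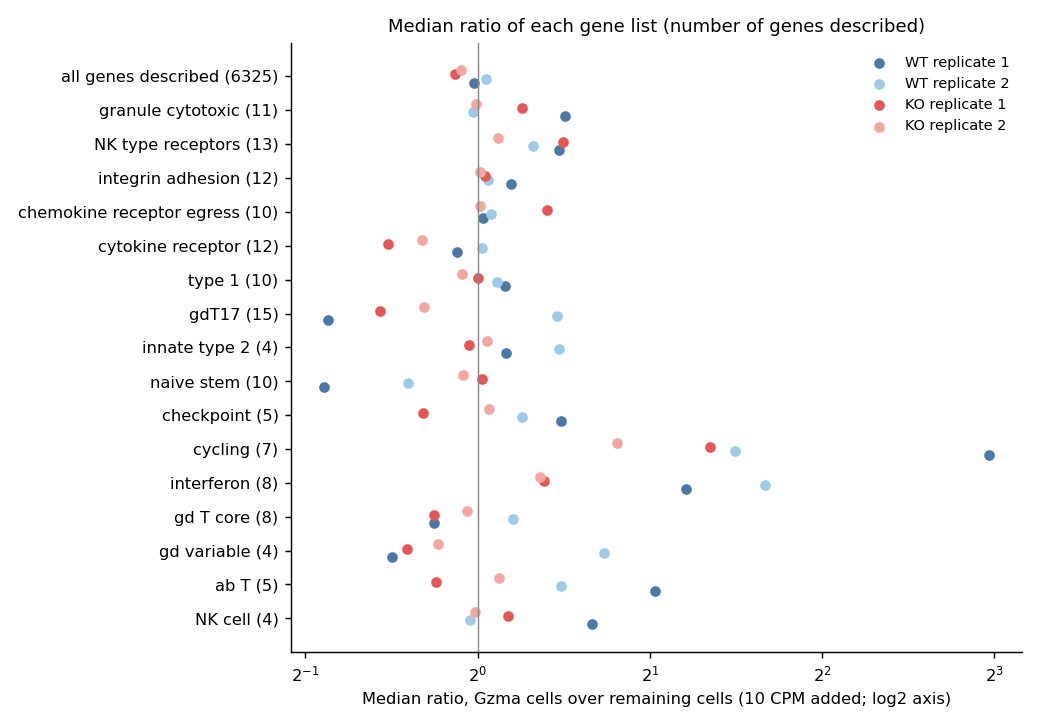
Median ratio of the genes of each list in Gzma cells over remaining cells (log2 axis, 10 CPM added to both), with 1 point for each library and the number of genes in brackets; no error is drawn, since each point is a median over genes of 1 library. The cycling list lies to the right in all 4 libraries, with WT replicate 1 farthest at 7.84, while the median over all 6325 genes stays between 0.912 and 1.03.

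Markers of other cells that the gate could hold were read beside these values. In the αβ T list, 2 of 5 genes (Trbc1 and Trbc2) were higher in all 4 libraries, Cd4 was at 0 in all 4 sets of Gzma cells, and the summed level of the 6 listed genes was 2758, 2452, 1061 and 1156 CPM against 1733, 1799, 1030 and 991. In the NK list, 4 of 8 genes were described and none had a common direction, at summed levels of 263, 267, 72.9 and 56.8 CPM against 155, 173, 44.7 and 42.9. The defining NK receptor gene Ncr1 was at 18.5 and 16.2 CPM in WT Gzma cells, against 2.88 and 2.07 in the remaining WT cells, and at 0 in both KO sets. Fcer1g was also higher in WT Gzma cells, at 80.1 and 64.7 CPM against 28.4 and 27.2. Tyrobp was higher there too, at 18.5 and 56.6 CPM against 10.0 and 9.28. Klrb1c, Itga2 and Eomes had no common direction in WT. The 7 B cell genes summed to 197, 238, 66.8 and 84 CPM against 2009, 221, 401 and 72.6, lower in the Gzma cells of pool 1 and slightly higher in those of pool 2. Igkc, an immunoglobulin light chain gene, stood at 14.4, 0, 21.3 and 25 CPM against 1565, 1.56, 280 and 10.3. The part of these cells in the differences above was not tested.

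Within the Gzma cells, 3 small sets stood out by genes that the rule did not use. The first carried at least 2 of Klrg1, Cx3cr1 and S1pr5, a receptor, a chemokine receptor and an egress receptor of terminal effector lymphocytes. It held 6 of 53, 1 of 86, 12 of 77 and 2 of 95 Gzma cells (11.3%, 1.16%, 15.6% and 2.11%), against 4, 2, 4 and 2 of the 7741 to 11584 remaining cells (0.0514%, 0.0181%, 0.0517% and 0.0173%). Gzma cells were thus 6 of 10, 1 of 3, 12 of 16 and 2 of 4 of all splenic cells with that combination. All 21 had Ccl5 UMIs. Their median Gzma was 44.5, 39, 36 and 31.5 UMIs, against 3, 3, 6 and 6 in the other Gzma cells. Depth did not move with this in a common direction, at a median of 13576.5, 6100, 3707.5 and 3401.5 UMIs against 6034, 5851, 8978 and 8846. At 2000 UMIs a cell the set was found in 1, 0, 7 and 2 Gzma cells.

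The other transcripts of this set were read by genotype label. All 14 KO cells of the set had Trdc and Scart1 UMIs, and so did nearly all other KO Gzma cells (Trdc 65 of 65 and 93 of 93, Scart1 64 of 65 and 93 of 93). Maf, a γδT17 gene, was lower in the KO cells of the set, at 473 and 294 CPM against 818 and 1198 in the other KO Gzma cells. Zbtb16, a gene of innate-like T cells, was lower too, at 245 and 147 CPM against 510 and 545. The second value of each pair in the set comes from 2 cells. In the KO cells of the set Ccl5 stood at 11701 and 26606 CPM, against 707 and 156 CPM in the other KO Gzma cells. It was higher in the WT cells of the set as well, at 5855 and 29180 CPM against 2087 and 1255. In the WT sets 3 of 6 and 0 of 1 cells had Trdc, and 4 of 6 and 1 of 1 had Cd8b1. The WT cells of the set are therefore few and in part without a Trdc UMI, which leaves 3 with Trdc.

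The second set was the cycling cells given above. The third had no Trdc UMI, the constant gene of the δ chain: 10 of 53, 3 of 86, 0 of 77 and 0 of 95 Gzma cells (18.9%, 3.49%, 0% and 0%), against 7.69%, 4.86%, 1.20% and 1.02% of the remaining cells. With every cell thinned to 2000 UMIs the shares were 30.2%, 13.1%, 7.89% and 4.21% against 13.5%, 9.68%, 6.51% and 4.64%. The direction turned in WT replicate 2 and KO replicate 1, and WT replicate 1 alone was higher on both scales. A count of 0 allows a share of up to 4.68% and 3.81% in the KO sets (exact upper bounds). Of the 10 cells in WT replicate 1, 9 had Trac, the constant gene of the α chain, and 8 were cycling. Among the WT replicate 1 Gzma cells with Trdc, 18.6% were cycling, so the share stayed above the 1.77% of the remaining cells.

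Cd8b1, a chain of the CD8 coreceptor, set the WT Gzma cells off from their neighbours. It was detected in 41.5% and 33.7% of WT Gzma cells against 16.2% and 17.7% of the remaining WT cells, and in 1.3% and 1.05% of KO Gzma cells against 1.18% and 1.60%. With 2000 UMIs a cell, the WT values were 35.8% and 23.8% against 12.1% and 12.1%. Cells with both Ccr9, a gut-homing chemokine receptor, and Scart2, a scavenger receptor of γδ T cells, made up 18.9% and 32.6% of WT Gzma cells against 6.94% and 8.39% of the remaining WT cells. In KO they were 1.3% and 0% against 0.607% and 0.181%. Cells with Il2rb and Ccl5 made up 54.7%, 40.7%, 23.4% and 24.2% of Gzma cells against 39.1%, 45.5%, 10.5% and 15.8%. Thinned, the last pair read 26.4%, 21.4%, 5.26% and 3.16% against 25.4%, 28.7%, 2.57% and 3.74%, so the higher KO shares did not hold in KO replicate 2 at equal depth.

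**Figure D4:**
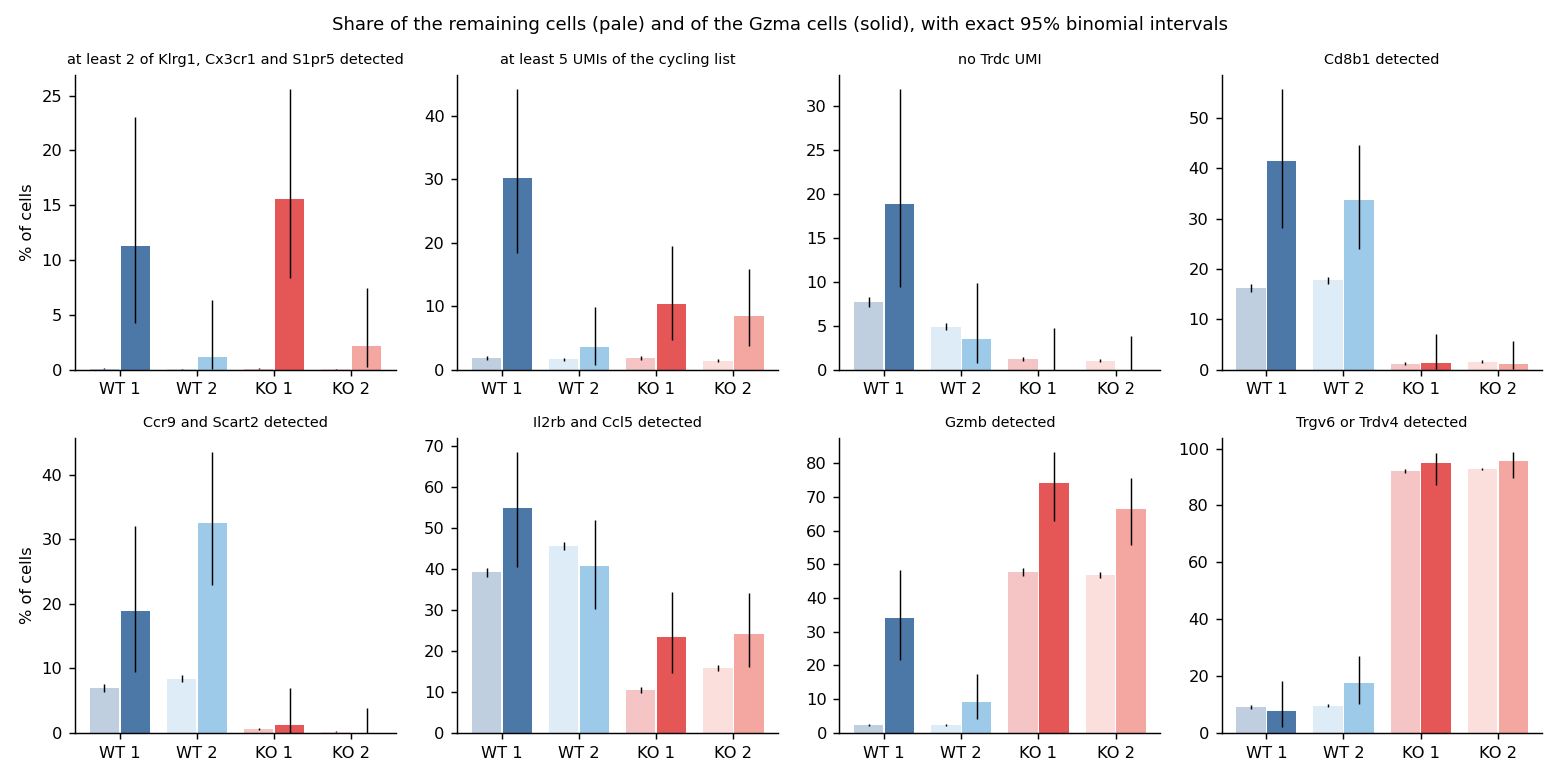
Share of cells (%) with each combination of transcripts in the remaining cells (paler left bar) and the Gzma cells (darker right bar) of each library, with exact 95% binomial intervals as lines. Klrg1, Cx3cr1 and S1pr5 in combination and the cycling cells are more frequent in the Gzma cells of every library, Cd8b1 is more frequent in the WT Gzma cells, and Trgv6 or Trdv4 separates WT from KO in both sets of cells.

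The Trgv6 share of the Gzma cells was low in WT and high in KO, like that of the library around them. Among cells whose leading Trgv gene could be called, Trgv6 led in 1 of 33 and 2 of 66 WT Gzma cells (3.03% and 3.03%) and in 43 of 55 and 39 of 73 KO Gzma cells (78.2% and 53.4%). In the remaining cells Trgv6 led in 4.32%, 3.45%, 65.9% and 57.8%. The KO libraries were higher by 62.8 percentage points in the Gzma cells (exact permutation p = 0.33, the smallest possible) and by 57.9 in the remaining cells. Trgv2 led in 75.8%, 72.7%, 20% and 43.8% of called Gzma cells, and Trgv1 in 12.1%, 19.7%, 0% and 1.37%. With cells thinned to 2000 UMIs the difference in the Gzma cells was 38.8 percentage points. UMIs of Trgv6 or Trdv4 were found in 7.55%, 17.4%, 94.8% and 95.8% of Gzma cells against 9.20%, 9.60%, 92.2% and 92.8% of the remaining cells. Trgv genes resemble each other in sequence, and counting can split reads between them, so these calls are uncertain.

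The whole profile was nearer to the remaining cells of the same genotype than to those of the other. Over 6325 genes, which are not independent replicates, Spearman's rho between the Gzma cells and the remaining cells of the same library was 0.856, 0.943, 0.937 and 0.966. Against the remaining cells of the other library of the same genotype it was 0.848, 0.941, 0.927 and 0.964, and against those of the other genotype 0.681 to 0.739. Values within a library share library and depth.

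Between genotypes, most γδT17 genes tested were higher in the Gzma cells of the KO libraries, and 6 of 10 naive genes, Cd8a and Cd8b1 were higher in those of the WT libraries. Of 7238 genes tested in the summed Gzma cells, 1206 (16.7%) passed an adjusted p of 0.05 (edgeR quasi-likelihood with Benjamini-Hochberg adjustment), 625 higher in KO (8.63%) and 581 lower (8.03%). The median log2 difference over all genes was 0.01. A sum over cells cannot tell more cells of a type from more RNA in each cell. In the Gzma cells without a Trgv6 or Trdv4 UMI, which are few in KO (4 of 77 and 4 of 95), 26 of 4384 genes passed. Leaving out 1 library at a time gave 350 calls without the second KO library, 503 without the first, and 1796 without WT replicate 1.

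Of 15 genes of the γδT17 list tested, 11 rose in KO, 1 fell and 3 were not called. The list's median log2 difference was 2.91 against 3.56 in the remaining cells. The 1 that fell was Scart2, which the paper takes as a marker of Vγ4+ γδT17 cells. Maf, a transcription factor gene of γδT17 cells, stood at 103 and 139 CPM in WT and 788 and 1191 in KO, a log2 difference of 3.15 ± 0.29 (adjusted p = 3.46e-05). WT and KO did not overlap. Zbtb16 (the transcription factor PLZF of innate-like T cells), Il1r1, Cxcr6, Ccr2 and Blk rose by 3.40, 3.94, 2.78, 2.76 and 3.88 on the log2 scale, with adjusted p from 1.82e-05 to 0.0267. Scart1 stood at 103, 485, 2347 and 2920 CPM and was not called (log2 3.30 ± 0.77, adjusted p = 0.0634).

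Of 10 genes of the naive and stem list, 6 fell and none rose, at a median of -2.76 against -3.66 in the remaining cells. Lef1, a transcription factor of naive T cells, stood at 308 and 509 CPM in WT and 51.6 and 55.6 in KO (-2.79 ± 0.28, adjusted p = 6.02e-05). Tcf7 stood at 290 and 629 against 34.9 and 37.5 CPM (-3.52 ± 0.36, adjusted p = 0.000142). Cd27 fell by 4.14 and Ccr9 by 3.84 on the log2 scale. Il7r did not pass, at 248, 564, 410 and 421 CPM (0.17 ± 0.32, adjusted p = 0.790).

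Of 17 NK-type receptors tested, 2 rose (Klrb1b and Klrk1), 7 fell and 8 were not called. Klrb1b rose by 5.49 ± 0.79 (adjusted p = 0.00535), from 4 UMIs in all WT Gzma cells to 227 in KO, and Klrk1 by 1.07 ± 0.25 (adjusted p = 0.0114). Cd160, an activating receptor of cytotoxic lymphocytes, stood at 187 and 184 CPM in WT and 4.56 and 7.95 in KO (-4.69 ± 0.34, adjusted p = 1.11e-05). Of the other label genes, Il18r1 (0.61 ± 0.25, adjusted p = 0.121) and Itga1 (0.96 ± 1.09, adjusted p = 0.656) did not pass, and Itga1 rested on KO replicate 1: without it the difference was -0.87.

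Most granule genes, like most of all genes tested (16.7% called), were not called between genotypes. Of 11 tested, Srgn rose (0.89 ± 0.24, adjusted p = 0.0250), Ctsw and Lyst fell (-0.90 ± 0.28, adjusted p = 0.0449, and -1.54 ± 0.31, adjusted p = 0.00413), and 8 did not pass. Among the latter, Nkg7 (-0.89 ± 0.74, adjusted p = 0.532), Gzmb (0.80 ± 1.43, adjusted p = 0.799) and Prf1 (-0.06 ± 0.52, adjusted p = 0.963) had WT and KO libraries that overlapped. With 2 libraries a group these errors leave differences of several fold possible. Gzma, used by the rule, was at 2255, 1432, 1722 and 1138 CPM and was given no test.

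Of 8 interferon-induced genes, 5 fell and none rose. Isg15 fell by 3.25 ± 0.42 (adjusted p = 0.000965). Of 7 cycling genes none was called, and WT replicate 1 spread the WT values widely (Mki67 at 238 ± 236 CPM in WT and 82.8 ± 22.4 in KO, SD, n = 2). Of 12 integrin genes 4 rose and 2 fell, with Itgb1 up by 1.53 ± 0.31 (adjusted p = 0.00430) and Itga4, the chain of VLA-4, down by 2.59 ± 0.31 (adjusted p = 0.000149). Among the αβ T markers 3 of 5 fell (Cd8a, Cd8b1 and Trbc1), and among the NK markers 4 of 6 fell, Eomes, Fcer1g, Ncr1 and Tyrobp. Of 10 type 1 genes 4 fell and 1 rose, of 13 cytokine receptors 4 rose and 3 fell, and of 10 chemokine receptor and egress genes 3 rose and 1 fell.

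The genes with the largest differences were nearly absent from the Gzma cells of 1 genotype. Slc15a3, a lysosomal peptide transporter, had 0 UMIs in WT and 143 in KO Gzma cells, at least 34.2-fold higher against a floor of 3 UMIs over the group. Arhgap23 and Fam20a, also at 0 in WT, were at least 20.1-fold and 17.7-fold higher. Tmeff2 had 1 UMI in WT and 547 in KO, a ratio of CPM of 393 (95% counting interval 70.2 to 15547). Arnt2, Myo16, Mcc, Edil3, Cdh10, Ccr1, Ccr10 and Ablim3 had 1 or 2 UMIs in WT and 82 to 244 in KO. With a library left out, which also changes the depth behind the floor, the bounds fell to as low as 15.1 for Slc15a3, 8.86 for Arhgap23 and 7.80 for Fam20a, and Tmeff2 was at least 57.7-fold higher without WT replicate 2, which held its 1 WT UMI. In the remaining cells the same 12 genes were higher in KO as well, by 1.83 to 7.21 on the log2 scale.

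In the other direction, Klri1, an NK receptor gene, had 112 UMIs in WT and 0 in KO, at least 52.0-fold lower, and Cd8a had 88 and 0, at least 40.8-fold lower. Cd8b1 had 366 UMIs in WT and 3 in KO, a ratio of 170 (counting interval 57.7 to 827). WT replicate 1 held 242 of the 366 Cd8b1 UMIs and 58 of the 88 of Cd8a. Without it the Cd8b1 ratio was 103 (34.4 to 505) and the Cd8a bound 24.9, and over all 4 libraries left out in turn they ran from 103 to 292 and from 17.5 to 61.1. The Klri1 bound ran from 22.2 to 66.4. Themis, which sets the signalling threshold of the T cell receptor, stood at 1019 and 1314 CPM in WT and 12.2 and 22.7 CPM in KO (-5.89 ± 0.34, adjusted p = 4.49e-06). Trim30c, Arpp21, 2610307P16Rik, Lrmda, Ifngas1, Rbpms, Trat1 and Patj had 51 to 192 UMIs in WT and 1 or 2 in KO. All 12 genes were lower in KO in the remaining cells as well, by 3.82 to 5.84 on the log2 scale. Among Gzma cells without Trgv6 or Trdv4, 9 of these 12 no longer passed. These cells are few in KO, so a lost call does not show a smaller difference.

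**Figure D5:**
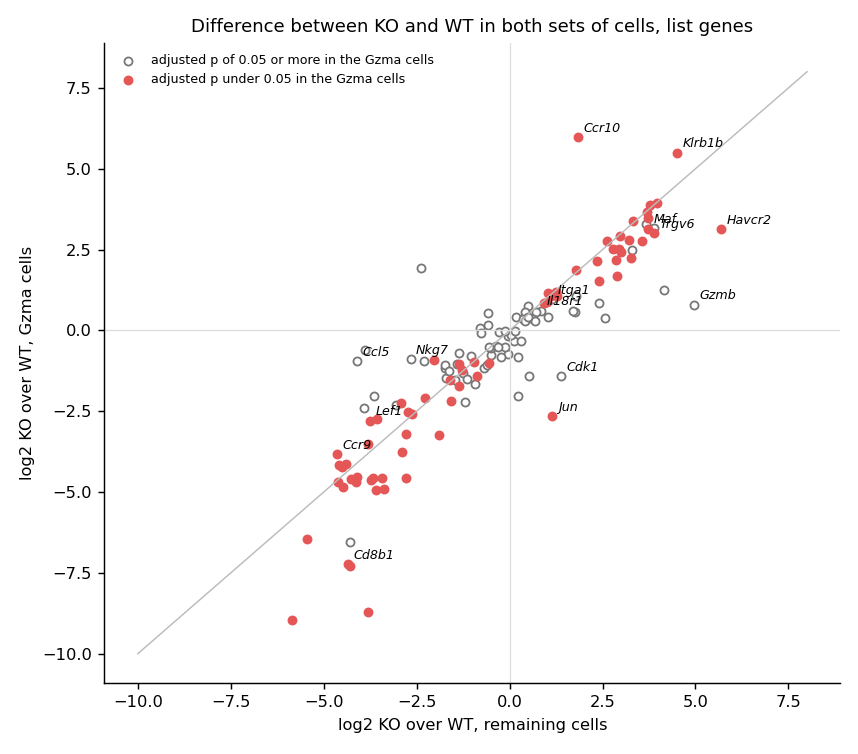
Log2 difference KO over WT of the list genes reported here in the remaining cells (x axis) and in the Gzma cells (y axis), filled where the adjusted p in the Gzma cells was under 0.05; the line marks equal differences, no error bars are drawn, and values beyond -7 come from genes at 0 to 3 UMIs in KO. Of the labelled genes, Ccr10 and then Ccl5 lie farthest above the line, and Gzmb and then Jun farthest below it; both axes share the same 4 libraries.

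Whether the KO libraries differed from WT by another amount in Gzma cells than in the remaining cells was tested as an interaction, with Gzma cells and remaining cells paired within a library. Of 12847 genes, 112 (0.872%) passed, 54 with a higher KO over WT difference in Gzma cells (0.42%) and 58 with a lower one (0.451%). With another scaling (RLE) 110 passed, 42 higher and 68 lower. The count was 1 without the library term and 1 with the pool as the replicate block in its place. Leaving out a KO library gave 14 (replicate 1) or 24 (replicate 2), and leaving out a WT library gave 181 (replicate 1) or 504 (replicate 2).

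Nkg7 had the smallest adjusted p of the listed genes (3.82e-07). KO was lower than WT by 2.66 on the log2 scale in the remaining cells and by 0.89 in the Gzma cells, an interaction of 1.87 ± 0.25. Nkg7 in Gzma cells over remaining cells had ratios of 2.06 and 0.857 in WT and 4.87 and 3.24 in KO. The WT libraries thus went opposite ways, a spread that the SE of the interaction and the adjusted p values for Nkg7 do not show. The KO Gzma cells, at 595 and 227 CPM, thus held more Nkg7 than the 114 and 63.2 CPM of their neighbours. The call was lost without the library term (1.85, adjusted p = 0.755), with the pool as block (1.97, adjusted p = 0.63) and without KO replicate 1 (adjusted p = 0.0624). It was kept in thinned cells (2.78, adjusted p = 3.58e-19), in Gzma cells with Trdc (2.17, adjusted p = 5.33e-29) and by DESeq2 (1.83, adjusted p = 0.011). Ccr10, the receptor for the epithelial chemokines CCL27 and CCL28, was the largest named difference upwards. It stood at 0, 1.62, 74.4 and 52.2 CPM in Gzma cells and 10.1, 6.91, 33.4 and 24.9 CPM in the remaining cells (interaction 4.47 ± 0.87, adjusted p = 0.000242). The Ccr10 call was lost without the library term, with the pool as block and in thinned cells. Havcr2 (TIM-3, an inhibitory receptor) and Isg15 had interactions of -2.42 ± 0.425 (adjusted p = 1.97e-05) and -1.22 ± 0.327 (adjusted p = 0.0291). Those of Lef1, S1pr1 and Il7r were 1.07 ± 0.26, 0.95 ± 0.23 and 0.90 ± 0.22, with adjusted p of 0.00772, 0.00845 and 0.0129. The WT libraries were apart here too. Havcr2 stood at 30.8 and 9.70 CPM in WT Gzma cells against 2.14 and 2.21 in the remaining cells. Il7r had WT ratios of 0.272 and 0.573, a spread that these SEs do not show in full. Nearly all calls were lost without the library term and with the pool as block, as given above. Cdk1, the kinase that drives mitosis, stood at 121, 30.7, 39.5 and 13.6 CPM in Gzma cells and 6.77, 4.45, 15 and 13.1 in the remaining cells (-2.60 ± 0.44, adjusted p = 7.44e-06). The Cdk1 call was lost in the same settings as that of Ccr10. The size was -1.76 without WT replicate 1 and -2.07 without KO replicate 2, where the call was lost too.

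The same rule picked far more cells in the thymus. Of thymic γδ T cells, 44.3% and 39.9% met it in the WT libraries and 11.7% and 7.59% in KO, and of the joint sort of DN1, DN2 and DN3 precursors 32.2% and 36.0% in WT and 32.7% and 46.0% in KO. Those cells had ratios below 1 for Itga1, Il18r1 and Klrb1b in all 8 thymic libraries (0.112 to 0.956 over the 3 genes) and near 1 for Klrg1 and S1pr5, both close to 0 CPM. Itga1 in the WT thymic γδ T libraries and Klrb1b in all WT thymic libraries were also near 0, at most 3.48 CPM. With 10 CPM added, their ratios there say little. Mki67 and Birc5 were higher in them in every thymic library, at ratios of 1.36 to 5.45 and 1.52 to 5.35. Lgals3 had ratios of 0.186 to 1.10 in the thymic libraries and was below 1 in 7 of the 8, unlike in the spleen. The thymic Gzma cells were also deeper, with median UMI counts of 7644 to 11673 against 4287 to 5866 in the other cells of their libraries, and the part of depth in these ratios was not tested.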

How the data were processed

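Single-cell 3′ RNA was measured in 6 pools, each split by hashtag into a WT and a KO matrix, called a library here. The 4 splenic libraries were compared, and the 8 thymic ones served only to apply the same rule there. Per the submitters' processing notes, reads were processed with Cell Ranger 8.0.1 on GRCm39. The authors deposited 1 raw UMI count matrix for each of the 12 libraries, so the values are whole counts, not normalized. The study's limits were 500 reads, 200 genes and 20% mitochondrial reads a cell.

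Here the rule of 500 UMIs was applied, counts were summed per library over Gzma cells and over remaining cells, and 9545 of 33696 genes (ribosomal, mitochondrial and Gm- genes) were left out of tests, as in the study. No doublet caller was run. Ratios were taken after 10 CPM was added. KO was compared with WT by edgeR 4.0.16 (R 4.3.3, quasi-likelihood, robust), with Benjamini-Hochberg adjustment and a threshold of 0.05, and shares by the exact permutation test. The interaction had the library as a term. DESeq2 1.42.0 served for an alternative, and SciPy 1.17.1 and pandas 2.3.3 for exact tests and sums. The fit was also run on simulated counts, and no result given here rests on that.

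Named genes were, between genotypes, the 12 largest differences each way among called genes with a mean of 20 CPM and 1 direction in both pools. Against remaining cells they were the 12 largest lowest and 12 smallest highest ratios, and for the interaction the 5 most positive and 5 most negative called genes with a mean of 20 CPM over all 8 sums. Label genes and Gfi1 were always named, and list genes served as examples. Members, lists and rules were chosen with earlier results of these data known.

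A replicate number marks a shared droplet run and so pairs WT with KO. Deviations of same-pool libraries from the mean of their genotype correlated at 0.233 in Gzma cells and 0.476 in remaining cells (across genes). With 2 libraries a genotype these deviations mirror each other, so both pairs give the same value. Results that need items withheld from the text are not reported here.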

Additional observations from a re-analysis of the deposited data

Results flagged for a closer look

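In 10 genes, the 5 most positive and 5 most negative of those that passed and averaged 20 CPM or more, the KO over WT difference in Gzma cells departed from that in the remaining cells by the interaction test (edgeR quasi-likelihood, adjusted p). All 10 lost the call without the library term, with the pool in place of the library and at 2000 UMIs a cell. Without the library term the positive differences were still 1.95 to 4.48 and the negative ones other than Cd8a -2.90 to -2.65, and with the pool 1.97 to 4.47 and -2.82 to -2.62. At 2000 UMIs a cell Ms4a6c, Cdk1 and Kif15 stood at 2.66, -3.45 and -3.75, and Xdh, Sox4 and Cd8b1 shrank to 1.49, 0.945 and -1.78. Ccr10, Wrnip1, Phlpp1 and Cd8a then had fitted sizes of 9.89, 9.53, -8.10 and -8.00. Ccr10 alone kept the call without each library in turn, but its WT Gzma cells held 1 Ccr10 UMI in all. Its size was 3.40 to 4.45 without WT replicate 1 or either KO library. Without WT replicate 2 the WT Gzma cells had 0 Ccr10 UMIs, so the fitted size of 12.2 is not readable. Cdk1, Kif15, Cd8b1, Cd8a and Wrnip1 lost the call without WT replicate 1, Xdh without WT replicate 2 (adjusted p = 0.13), and each of the 9 without at least 1 of the KO libraries. DESeq2 gave no adjusted p for any of the 10. Jun, under 20 CPM on average, had -3.79 (adjusted p = 0.000245), more negative than Cdk1, Cd8b1, Kif15 and Phlpp1.

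The positive ones were Ccr10 (4.47 ± 0.87, adjusted p = 0.000242), Ms4a6c (2.45 ± 0.50, adjusted p = 0.00062), Wrnip1 (2.23 ± 0.52, adjusted p = 0.00492), Xdh (2.03 ± 0.51, adjusted p = 0.0147) and Sox4 (2.00 ± 0.43, adjusted p = 0.0014). Sox4, a transcription factor gene, stood at 69.8 and 139 CPM in WT Gzma cells and 15.2 and 14.8 in KO, against 74.2, 81.6, 2.38 and 3.85 CPM in the remaining cells. Wrnip1 stood at 4.11, 9.70, 39.5 and 40.9 CPM in Gzma cells and at 27.2, 28, 33.6 and 40.7 in the remaining cells, so the WT Gzma cells were the low set.

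The negative ones were Cdk1 (-2.60 ± 0.44, adjusted p = 7.44e-06), Cd8b1 (-2.79 ± 0.60, adjusted p = 0.00173), Kif15 (-2.50 ± 0.58, adjusted p = 0.00492), Phlpp1 (-2.72 ± 0.69, adjusted p = 0.0147) and Cd8a (adjusted p = 0.0382), which had 0 UMIs in KO Gzma cells and so has no readable fitted size. Cd8a also lost the call among Gzma cells with a Trdc UMI (adjusted p = 0.19) and with no count filter (adjusted p = 0.0548). Kif15, a mitotic kinesin gene, stood at 129 CPM in the Gzma cells of WT replicate 1 and at 34, 12.2 and 12.5 in the others, against 4.50 to 5.84 in the remaining cells.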

How the results depend on the processing

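The share difference of 0.176 percentage points ranged from 0.09 to 0.262 when a library was left out, was 0.176 with the pool as replicate block, and turned with at least 1 Gzma UMI and no Il17a, to -0.785. The share difference was 0.272 with no condition on Il17a and 0.244 with at least 3 Gzma UMIs. The difference in Trgv6 share was 62.8 with the block, 38.8 in thinned cells and 50.4 to 75.2 when a library was left out. The 9 genes at least 2-fold higher in all 4 libraries became 34 with 1 CPM added, 4 in thinned cells, 54 in the WT libraries alone, 15 in the KO libraries alone and 0 without cycling cells. The 1206 of 7238 genes called between genotypes became 616 of 7238 with DESeq2, 769 of 6373 at 3 Gzma UMIs, 26 of 4384 without Trgv6 or Trdv4, 319 of 1634 in thinned cells, 1279 with the replicate block and 350 to 1796 when a library was left out. The 112 interaction calls of 12847 genes became 9 of the 1390 with an adjusted p from DESeq2, 9 of 11355 in thinned cells, 1 without the library term, 1 with the replicate block and 14 to 504 when a library was left out. Itga1 ranged from -0.87 (without KO replicate 1) to 1.86 and Gfi1 from -0.11 (without WT replicate 1) to 1.04. With a library left out, the lone library was assumed to vary like the others. Of 245 values of named genes under alternatives, 230 kept their direction and side of the threshold. The cause was not tested. The 53 to 95 cells a library limit every value.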
